A study of Rattus norvegicus with 8 samples.

Results

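Hbb, Hba-a2, Hbb-b1, Alas2, Slc4a1 and Ahsp are genes of haemoglobin and of the red cell, and their signals were described on 8 arrays of rat liver tissue cut by laser microdissection (LMD). The genes were taken from the array by name, from a list of 6 names selected on earlier results of these arrays, so that their levels and differences are given as a description and carry no test. Of 27110 genes named on the array, 5 of the 6 were found under these names, on 6 probes and 25 spots. No probe was annotated as Hba-a2 by the scanner file, but the RefSeq accession of the probe that it called Hba2 now belongs to Hba-a2, and with this probe the 6 genes had 7 probes and 35 spots. All 7 probes were well above background on each of the 7 arrays whose background marks were complete, and all passed the filter on dim signals.

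Haemoglobin carries oxygen in red cells as a tetramer of alpha and beta globin chains around haem. Alas2 is the erythroid enzyme of the first step of haem synthesis, Slc4a1 is the anion exchanger band 3 of the red cell membrane, and Ahsp is a chaperone that holds free alpha globin chains. The red cells of adult rats leave the marrow as reticulocytes, which have lost the nucleus but still hold globin mRNA, so that blood in a tissue section carries globin transcripts without any erythroid nucleus. The fetal liver makes red cells, and the adult liver clears haemoglobin through haptoglobin, hemopexin and the Kupffer cells.

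The livers came from F344 rats, which the labels call a DPPIV+ strain, whereas the methods give the donor cells as DPPIV+ and the recipients as DPPIV-, the strain of their female rats. In the Ret/PH model of the methods, which all recipients share, the hepatocytes were blocked by retrorsine (Ret) before partial hepatectomy (PH), and bone marrow mesenchymal cells (BM-MCs), primary cultured, were given to the recipient liver through the spleen. The groups were 2 samples of mature hepatocytes (MHs) from control livers, 3 samples of clusters of small hepatocyte-like progenitor cells from control livers (control SHPCs), and 3 samples of SHPC clusters from livers that received BM-MCs. The difference of BM-MC SHPCs from control SHPCs is called the transplant contrast. The difference of control SHPCs from MHs is called the progenitor contrast. No label gives an animal, an age or a day of harvest for a sample.

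The tissue was cut from frozen sections stained with hematoxylin, and total RNA was labelled with Cy3 and hybridised to 1-colour arrays. Every value below, unless another scale is named, is a log2 signal from which the array's own 75th percentile was taken off, so that 0 marks that percentile. All 10 tested genes of the hepatocyte list, among them Alb, were bright on every array, with a summed linear signal between 1020 and 1320 times the 75th percentile. The share of spots above background lay from 57.0% to 61.5%. All 8 arrays lay on 1 slide. Its first set of 4 positions held both MHs with control SHPC replicates 1 and 2, and its second set held all 3 BM-MC samples with control SHPC replicate 3, so that slide set and transplantation largely coincide.

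The probes that read globin coding sequence are shown here because their likeness to each other bears on which gene a signal belongs to. Sequences and positions are those of the deposited scanner files, on rat build rn4. The first Hbb-b1 probe lies on the minus strand at chr1:161597660-161597719 and the Hbe2 probe, for an embryonic beta-like globin, on the minus strand at chr1:161648636-161648695. Capitals mark the letters that these probes share in their best ungapped register, 35 of 44 letters compared.
Hbb-b1, first probe: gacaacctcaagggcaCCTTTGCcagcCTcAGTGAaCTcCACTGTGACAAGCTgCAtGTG
Hbe2: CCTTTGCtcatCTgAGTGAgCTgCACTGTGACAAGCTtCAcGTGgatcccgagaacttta
A probe annotated as LOC103694856 lies on the opposite, plus strand at chr1:161597680-161597739 and covers 40 positions of the first Hbb-b1 probe. Its reverse complement is printed, with capitals for the letters it shares with that probe, 35 of 40 letters compared.
LOC103694856, reverse complement: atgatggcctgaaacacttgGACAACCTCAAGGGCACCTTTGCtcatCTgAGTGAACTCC
The second Hbb-b1 probe is on the minus strand and its 60 letters are spread over chr1:161590879-161591170, a span of 292 bases, so that they are not contiguous in the genome. The Alas2 probe lies on the plus strand at chrX:39810353-39810412. Each has 1 reading frame without a stop codon over its whole length.
Hbb-b1, second probe: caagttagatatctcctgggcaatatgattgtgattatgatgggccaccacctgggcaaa
Alas2: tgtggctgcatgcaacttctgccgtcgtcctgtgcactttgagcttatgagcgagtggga

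The Hbb probe, on the minus strand at chr1:161620134-161620193, covers the start of the transcript. It shared 50 of 50 letters with the first transcribed bases of Hbb in RefSeq and 39 of 45 with those of Hbb-b1. The Hba-a2 probe, on the minus strand at chr10:15571700-15571759, shared 36 of 36 letters with the start of Hba-a2 and 35 of 36 with the start of Hba-a1. Signal of these alpha globin copies cannot be separated by this probe, and the beta globin probes may read more than 1 beta globin copy. The Slc4a1 probe lies on the minus strand at chr10:91455352-91455411 and the Ahsp probe on the plus strand at chr1:187561567-187561626.

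Promoter sequence was available in the RefSeq table for 4 of the 6 genes, on build GRCr8, and is shown because the globin and Alas2 probes moved together. Each line gives the 150 bases before the annotated transcript start, 5′ to 3′ on the strand of the gene. Capitals mark matches, on both strands, to GATAA, the core of the site of GATA factors, CACCC, that of Klf1-like factors, CCAAT, and TATAAA. In the windows of 27457 genes, which span 250 bases before the start and 50 after it, GATAA was present in 26.1%, CACCC in 55.1%, CCAAT in 37.7% and TATAAA in 14.3%.
Hbb (chr1:167663722-167663871, minus strand): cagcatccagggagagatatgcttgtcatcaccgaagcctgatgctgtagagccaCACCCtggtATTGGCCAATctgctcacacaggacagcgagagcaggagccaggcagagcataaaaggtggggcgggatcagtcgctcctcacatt
Hbb-b1 (chr1:167643521-167643670, minus strand): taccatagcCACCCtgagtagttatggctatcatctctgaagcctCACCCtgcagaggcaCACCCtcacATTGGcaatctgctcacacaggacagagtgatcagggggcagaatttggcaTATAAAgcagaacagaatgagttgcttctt
Hba-a2 (chr10:15829139-15829288, minus strand): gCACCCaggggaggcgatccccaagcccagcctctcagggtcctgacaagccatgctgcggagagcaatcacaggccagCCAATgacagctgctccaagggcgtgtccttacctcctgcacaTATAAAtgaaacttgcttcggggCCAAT
Alas2 (chrX:22895300-22895449, plus strand): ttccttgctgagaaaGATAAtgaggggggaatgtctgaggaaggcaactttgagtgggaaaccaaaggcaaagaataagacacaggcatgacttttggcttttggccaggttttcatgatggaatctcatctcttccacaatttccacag
In the whole windows CACCC and CCAAT were found in the 3 globin genes and not in Alas2, TATAAA in Hba-a2 and Hbb-b1, and GATAA in Hba-a2 and Alas2. With positions counted from the transcript start, the GATAA of Alas2 lies at -135 and that of Hba-a2 at -164, outside the printed stretch. These matches describe letters only.

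The beta globin genes gave one pattern over the arrays, with the highest signal in control SHPC replicate 3 and the lowest in the BM-MC samples. The first Hbb-b1 probe, read on 10 spots, was at 2.62 and 3.59 in MH replicates 1 and 2, at 3.47, 3.43 and 5.16 in control SHPC replicates 1 to 3, and at 2.18, 2.25 and 2.75 in BM-MC replicates 1 to 3. All 3 BM-MC samples were below all 3 control SHPC samples, and MH replicate 1 lay among the BM-MC samples. Its mean was 3.1 ± 0.68 (SD, n = 2) in MHs, 4.02 ± 0.98 (SD, n = 3) in control SHPCs and 2.39 ± 0.31 (SD, n = 3) in BM-MC SHPCs. The spots of this probe differed within an array by an SD of at most 0.05, far less than the arrays differed. That SD covers the noise of spots alone and not the variation among samples.

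The second Hbb-b1 probe was at 2.01 and 2.95 in MHs, at 2.89, 2.90 and 4.65 in control SHPCs, and at 1.53, 1.71 and 2.20 in BM-MC SHPCs. The Hbb probe was at -1.43 and -0.50 in MHs, at -0.68, -0.97 and 1.28 in control SHPCs, and at -1.92, -1.93 and -1.45 in BM-MC SHPCs. In both, control SHPC replicate 3 stood apart and the BM-MC samples lay below the control SHPCs without overlap. For Hbb the BM-MC samples also lay below both MHs, though BM-MC replicate 3 and MH replicate 1 differed by less than the spread of any group.

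Hba-a2, the alpha globin gene, was at -1.08 and 0.08 in MHs, at -0.32, -0.46 and 1.51 in control SHPCs, and at -1.40, -1.41 and -1.02 in BM-MC SHPCs. The order of the groups was that of the beta globins, and MH replicate 1 again lay among the BM-MC samples. Alas2, the haem enzyme, was read on 1 spot. It was at -4.05 and -3.01 in MHs, at -3.46, -3.32 and -1.41 in control SHPCs, and at -4.07, -4.16 and -3.72 in BM-MC SHPCs. This was the globin pattern again, with the highest array 6.72 times the lowest.

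Slc4a1 and Ahsp did not show it. Slc4a1 was at -2.04 and -1.93 in MHs, at -2.56, -2.75 and -2.81 in control SHPCs, and at -2.18, -2.55 and -2.88 in BM-MC SHPCs. Its highest values were those of the MHs, both above every SHPC sample, and control SHPC replicate 3 was its second lowest array. Ahsp was at -3.55 and -4.01 in MHs, at -3.56, -3.31 and -3.27 in control SHPCs, and at -4.17, -2.86 and -3.99 in BM-MC SHPCs. Its highest and lowest arrays, replicates 2 and 1, were both BM-MC samples. A common pattern over the arrays was therefore seen in 4 of the 6 genes.

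**Figure D1:**
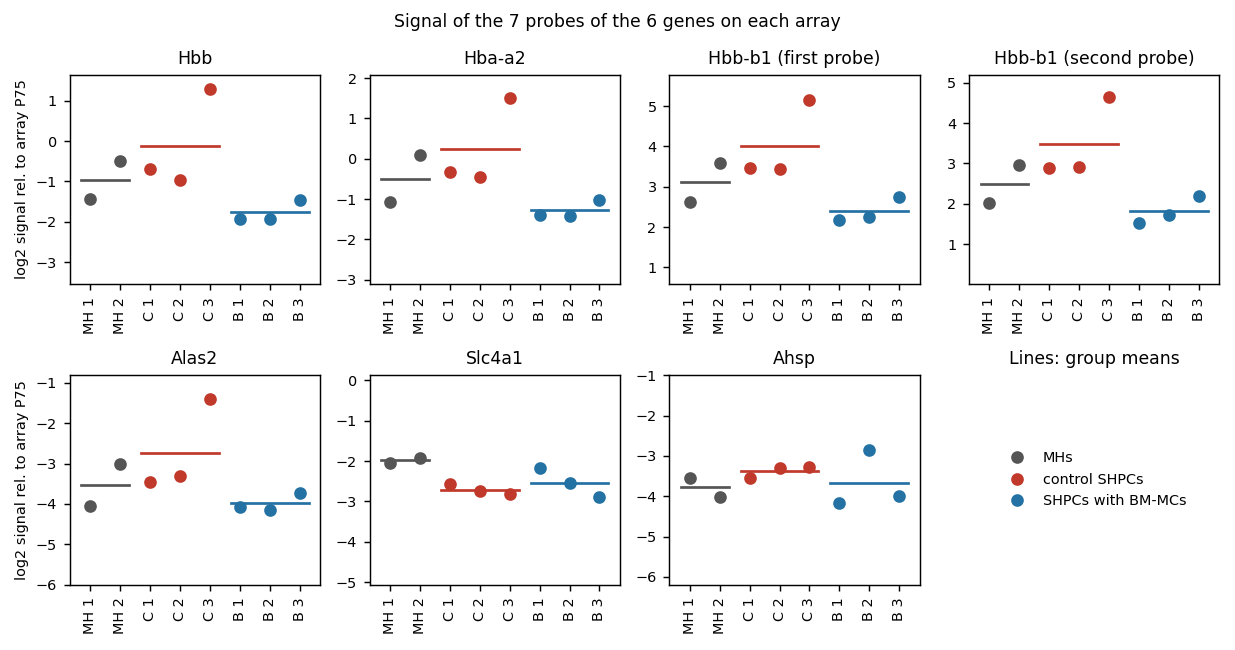
Each panel gives 1 probe, with the 8 arrays on the x axis (MH, mature hepatocytes; C, control SHPCs; B, SHPCs with BM-MCs) and the log2 signal relative to the array's 75th percentile on the y axis, over the same span in every panel. Points are single arrays and lines are group means; control SHPC replicate 3 is the highest point in the 5 globin and Alas2 panels and in neither the Slc4a1 nor the Ahsp panel.

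The globin probes and Alas2 moved by nearly the same step between arrays. Control SHPC replicate 3 exceeded the mean of control SHPC replicates 1 and 2 by 4.29-fold for Hbb, 3.72-fold for Hba-a2, 3.26-fold and 3.38-fold for the Hbb-b1 probes and 3.93-fold for Alas2. The same ratio was 0.899 for Slc4a1 and 1.13 for Ahsp. MH replicate 2 exceeded MH replicate 1 by 1.90-fold for Hbb, 2.23-fold for Hba-a2, 1.96-fold and 1.92-fold for the Hbb-b1 probes and 2.05-fold for Alas2, and the ratio was 1.08 for Slc4a1 and 0.726 for Ahsp. Over the 8 arrays, the 10 pairs among the globin and Alas2 probes had Pearson correlations between 0.977 and 0.999, and the 11 pairs that include Slc4a1 or Ahsp between -0.401 and 0.230. Without control SHPC replicate 3 the ranges over 7 arrays were 0.930 to 0.997 and -0.327 to 0.143. The pair of Hbb-b1 probes is annotated to 1 gene, Hba-a2 and Alas2 lie on other chromosomes than Hbb, and the points share the scaling of each array.

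The spread was large for an array probe. The SD over the 8 arrays was 1.04 for Hbb, 0.97 for Hba-a2, 0.97 and 1.0 for the Hbb-b1 probes and 0.90 for Alas2, against a median of 0.25 over the 23034 probes tested. Between 2.48% and 4.08% of those probes had an SD as large as 1 of these 5. The SD was 0.37 for Slc4a1 and 0.45 for Ahsp, and 28.3% and 19.5% of the probes were as variable. Without control SHPC replicate 3 the SD of the globin and Alas2 probes was between 0.44 and 0.60.

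**Figure D2:**
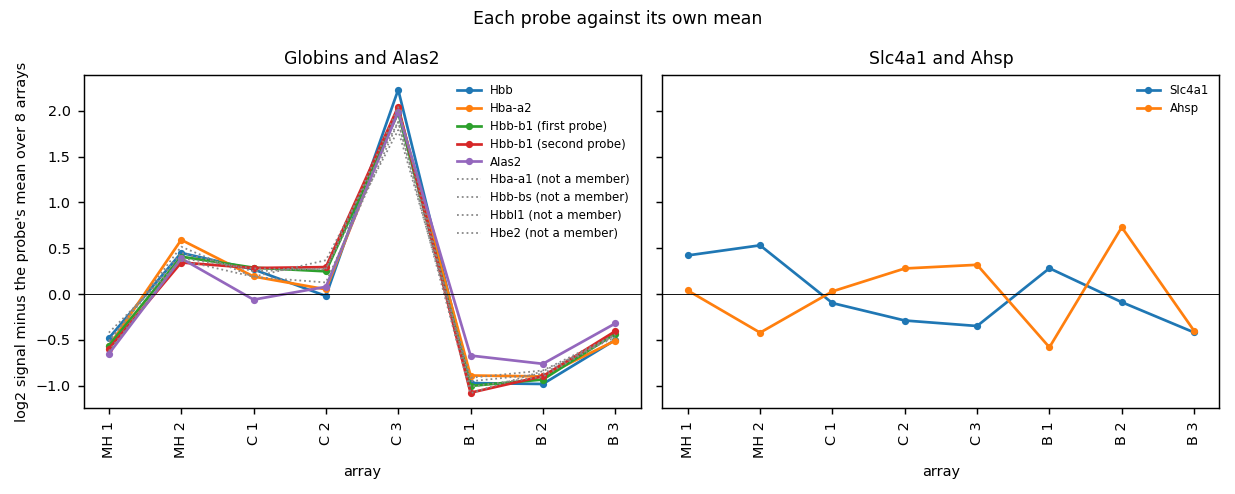
The log2 signal of each probe minus its own mean over the 8 arrays (y axis) is drawn by array (x axis; letters as above) for the globins and Alas2 on the left and for Slc4a1 and Ahsp on the right; dotted lines are 4 globin genes outside the 6. The lines on the left run together, with a peak in control SHPC replicate 3, and those on the right neither follow it nor each other.

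In the transplant contrast the difference of the means was -1.64 for Hbb, -1.52 for Hba-a2, -1.63 and -1.67 for the Hbb-b1 probes and -1.26 for Alas2. It was 0.17 for Slc4a1, which turned to -0.03 under median scaling and to -0.01 without BM-MC replicate 1. For Ahsp it was -0.29, and -0.05, -0.70 and -0.13 without BM-MC replicates 1, 2 and 3 in turn. Every BM-MC sample lay below every control SHPC sample for 5 of the 7 probes, as did 11.7% of all probes tested. Control SHPC replicate 3 carried much of the size, and without it the difference was -0.94 for Hbb, -0.89 for Hba-a2, -1.06 and -1.08 for the Hbb-b1 probes and -0.60 for Alas2. The BM-MC samples lay close together, with an SD between 0.22 and 0.34 over the globin and Alas2 probes, where the control SHPCs had an SD between 0.98 and 1.22. That larger SD came from control SHPC replicate 3. Control SHPC replicates 1 and 2 lay as close together, at -0.68 and -0.97 for Hbb and at 3.47 and 3.43 for the first Hbb-b1 probe.

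In the progenitor contrast the difference of the means was 0.84 for Hbb, 0.75 for Hba-a2, 0.92 and 1.0 for the Hbb-b1 probes and 0.80 for Alas2. Without control SHPC replicate 3 it was 0.14, 0.12, 0.35, 0.42 and 0.14 in the same order, within the spread of the 2 MHs. Ahsp was at 0.40 and, without that sample, at 0.34, with 0.63 without MH replicate 1 and 0.17 without MH replicate 2. Slc4a1 went the other way, at -0.72 and, without that sample, at -0.67. For BM-MC SHPCs against MHs, the difference was -0.80 for Hbb, -0.77 for Hba-a2, -0.71 and -0.66 for the Hbb-b1 probes, -0.45 for Alas2, -0.55 for Slc4a1 and 0.10 for Ahsp. For the globins and Alas2 these were no larger than the step between the 2 MHs themselves. Alas2 turned to 0.06 without MH replicate 2. Ahsp turned to -0.30 without BM-MC replicate 2 and to -0.13 without MH replicate 2. It was also below 0 under median scaling, at -0.09, and quantile normalization, at -0.05.

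The mean over the 6 genes, 1 probe each, with Slc4a1 and Ahsp included although they correlated with it at -0.25 and 0.25, was -1.59 and -0.97 in MHs, -1.18, -1.23 and 0.08 in control SHPCs, and -1.93, -1.78 and -1.72 in BM-MC SHPCs. Its difference was -1.03 in the transplant contrast, and -0.60 without control SHPC replicate 3. It was 0.50 in the progenitor contrast, 0.07 without that sample, and -0.53 for BM-MC SHPCs against MHs. The 4 globin probes alone averaged 0.53 and 1.53 in MHs, 1.34, 1.23 and 3.15 in control SHPCs, and 0.10, 0.16 and 0.62 in BM-MC SHPCs, an 8.27-fold range. This mean is called the globin level below. The control SHPCs of the first slide set exceeded the MHs of that set by 0.26 in the globin level, and in the second set the BM-MC samples differed by -2.86 from its one control SHPC sample, replicate 3. No BM-MC sample lies in the first set and no MH in the second, so beyond these values transplantation and slide set cannot be told apart.

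On a scale that does not use the 75th percentile, the 63 spots of adult globin genes held 0.210% and 0.451% of the summed signal of all spots in MHs, 0.362%, 0.355% and 1.14% in control SHPCs, and 0.179%, 0.174% and 0.233% in BM-MC SHPCs. The order of the arrays was again control SHPC replicate 3, MH replicate 2, the other control SHPCs, and then the BM-MC samples together with MH replicate 1. In tissue cut in bulk, fewer red cells and less globin RNA in each red cell cannot be told apart.

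Globin genes outside the 6 followed the same arrays. Of 4 other adult globin genes with a probe, Hba-a1, Hbb-bs and Hbbl1 were tested, and Hba-a3 was not above background on any array with complete marks. Differences in the transplant contrast were -1.46 for Hba-a1, -1.61 for Hbb-bs and -1.53 for Hbbl1, with adjusted p = 0.243, 0.204 and 0.204 from limma. Without control SHPC replicate 3 they were -0.89, -1.08 and -1.02. A fit blocked on slide set, where that replicate is the control SHPC sample beside the BM-MC samples, gave -2.61, -2.68 and -2.54. Over 19 alternatives their adjusted p ran from 0.0570 to 0.533 for Hba-a1, from 0.0578 to 0.457 for Hbb-bs and from 0.0595 to 0.461 for Hbbl1, and none passed. Their correlations with the globin level over the 8 arrays were between 0.99 and 1.0. They followed the selected genes so closely that their p-values are no test independent of that selection. Of the embryonic globins, Hbe1, Hbg1 and Hbz were not above background on any array with complete marks. Hbe2 was at 0.79 and 1.80 in MHs, at 1.69, 1.68 and 3.45 in control SHPCs, and at 0.40, 0.51 and 0.96 in BM-MC SHPCs. Its array pattern was that of Hbb-b1, with whose probe it shares the letters printed above, and its difference of -1.65 in the transplant contrast did not pass (adjusted p = 0.220 from limma, from 0.0588 to 0.484 over 19 alternatives). It was -1.06 without control SHPC replicate 3 and -2.83 when blocked on slide set. Hbe2 correlated with the globin level at 1.0, and its p-value is likewise no test independent of the selection.

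The rest of the erythroid programme was followed on lists for haem synthesis, the red cell membrane, the red cell cytosol, erythroid factors and erythroid signalling. With the other globins these held 51 tested genes outside the 6. None passed an adjusted p under 0.05 from limma in any of the 3 comparisons, where 0.0217% of all probes passed in the transplant contrast, 1.14% in the progenitor contrast and 0.330% for BM-MC SHPCs against MHs. At an unadjusted p under 0.05, limma had 2 higher and 6 lower in the transplant contrast, 6 higher and 9 lower in the progenitor contrast, and 3 higher and 9 lower for BM-MC SHPCs against MHs. Of the 6 lower in the transplant contrast, 4 were the globin genes Hba-a1, Hbb-bs, Hbbl1 and Hbe2, which are not independent of the 6 selected genes. As shares of the 51 genes these were 3.92% higher and 11.8% lower, 11.8% and 17.6%, and 5.88% and 17.6%, where all probes had 11% higher and 5.94% lower, 8.21% and 11%, and 7.35% and 5.97%. The methods' t-test had 6, 15 and 7 genes at that level and 0 after Benjamini-Hochberg adjustment. The shares of all probes above are those of limma. No such share is given for the methods' test, so its counts cannot be set against a background. The median difference of the 51 genes was -0.08, 0.01 and -0.09 in the 3 comparisons, beside 0.02, -0.03 and 0.00 over all probes.

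Haem synthesis outside Alas2 did not follow the globins. All 14 listed genes were tested, and the median of their correlations with the globin level was 0.21, or -0.11 without control SHPC replicate 3. Alas1, the housekeeping form of the enzyme and the one that supplies haem for liver cytochromes, was at 6.47 and 5.99 in MHs, at 5.29, 5.29 and 4.40 in control SHPCs, and at 5.58, 5.51 and 5.06 in BM-MC SHPCs. Its lowest array was control SHPC replicate 3, where Alas2 was highest, and its difference of -1.23 in the progenitor contrast had an adjusted p = 0.127 from limma. Alad, Urod and Tmem14c, of later steps or haem transport, varied far less, with differences in the transplant contrast of 0.18, -0.01 and -0.03 (adjusted p = 0.435, 0.974 and 0.939 from limma).

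Of 18 red cell membrane genes with a probe, 9 were tested. Sptb, a spectrin chain of the red cell, Epb42, the Rh proteins Rhag and Rhd, and Kel were not tested, being above background on at most 2 arrays. The brightest of those tested were Epb41, Ank1, Aqp1 and Tspo2, of which the first 3 are also expressed outside red cells. Their correlations with the globin level were -0.42, 0.20, 0.17 and 0.19, and without control SHPC replicate 3 they were -0.58, 0.15, -0.15 and 0.38.

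Of 14 red cell cytosol genes 11 were tested, and Trim10 and Hemgn were among those not tested, above background on at most 1 array. Blvrb, a reductase of bile pigments and flavins abundant in both red cells and liver, was at 3.19 and 3.1 in MHs and at 2.38, 2.55 and 2.32 in control SHPCs. Its difference of -0.73 had an adjusted p = 0.0566 from limma, with values from 0.0125 to 0.289 over 21 alternatives, of which 3 passed. Gpx1, Bnip3l and Prdx2, the other bright genes of the list, differed by 0.08, -0.28 and 0.14 between the same groups (adjusted p = 0.847, 0.258 and 0.570 from limma).

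Of 10 erythroid transcription factor genes, Gata1, Tal1, Nfe2 and Gfi1b, which mark erythroid and megakaryocytic precursors, were above background on at most 2 arrays and not tested. Zfpm1, Bcl11a, Lyl1 and Ldb1 were the brightest of the 6 tested. Their differences in the transplant contrast were 0.05, -0.13, 0.18 and 0.02, with adjusted p = 0.895, 0.803, 0.645 and 0.959 from limma. Klf1, the erythroid Krüppel-like factor, chosen after its values were seen, was at -5.32 and -5.43 in MHs, at -4.99, -4.95 and -4.71 in control SHPCs, and at -5.60, -5.24 and -5.39 in BM-MC SHPCs. It was above background on 6 of 7 arrays, its correlation with the globin level was 0.77, or 0.50 without control SHPC replicate 3, and its difference of -0.53 in the transplant contrast had an adjusted p = 0.194 from limma.

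Epo, the hormone of red cell formation, and Erfe, the marrow hormone that lowers hepcidin, were not above background, and 7 of 9 signalling genes were tested. Tfrc, the transferrin receptor, was at -0.54 and 0.14 in MHs, at 1.04, 1.26 and 1.52 in control SHPCs, and at 0.03, 0.77 and 1.14 in BM-MC SHPCs. Its difference of 1.47 in the progenitor contrast had an adjusted p = 0.112 from limma, with values from 0.0440 to 0.390 over 21 alternatives, of which 1 passed. Tfr2, a second transferrin receptor, and Stat5a and Jak2, which relay the signal of the erythropoietin receptor, differed by 0.08, 0.09 and -0.09 in the transplant contrast (adjusted p = 0.726, 0.696 and 0.759 from limma).

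**Figure D3:**
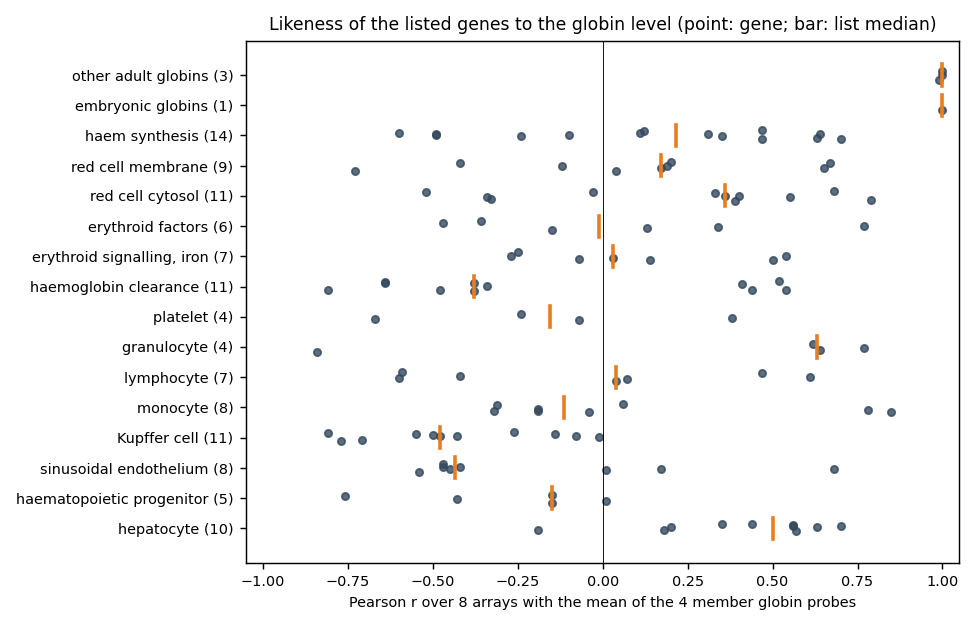
Each point is 1 tested gene of a list (y axis, number tested in brackets), placed by its Pearson correlation over the 8 arrays with the globin level (x axis), and bars are list medians. Only the globin lists sit together near 1.0; the haem synthesis list has a median of 0.21 (-0.11 without control SHPC replicate 3), the granulocyte list of 0.63 (0.94) and the Kupffer cell list of -0.48 (0.13).

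Other cells of blood and liver were read from their markers, since blood brings them too. The lists for platelets, granulocytes, lymphocytes, monocytes, Kupffer cells, sinusoidal endothelium, haematopoietic progenitors and haemoglobin clearance held 57 tested genes. None of them passed an adjusted p under 0.05 from limma in any comparison. At an unadjusted p under 0.05, limma had 5 higher and 6 lower in the transplant contrast, 3 higher and 14 lower in the progenitor contrast, and 1 higher and 4 lower for BM-MC SHPCs against MHs. As shares of the 57 genes these were 8.77% and 10.5%, 5.26% and 24.6%, and 1.75% and 7.02%, to be read beside the shares of all probes given above. The methods' t-test had 8, 10 and 3 at that level and 0 after adjustment, again with no share of all probes for that test. Their median difference was 0.12, -0.22 and -0.11 in the 3 comparisons.

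Neutrophil genes followed the globins over part of the arrays. S100a9, a subunit of the neutrophil protein calprotectin, was at -2.40 and -0.30 in MHs, at -0.71, -0.33 and -0.54 in control SHPCs, and at -2.28, -2.73 and -2.08 in BM-MC SHPCs. MH replicate 2 and the control SHPCs were high, and MH replicate 1 and the BM-MC samples low, but control SHPC replicate 3 was no higher than its group. Its partner S100a8 and Retnlg, another neutrophil gene, gave the same order of groups, with BM-MC samples between -2.60 and -2.21 and control SHPCs between -1.37 and -0.53 for S100a8. Differences in the transplant contrast were -1.84 for S100a9, -1.46 for S100a8 and -1.30 for Retnlg (adjusted p = 0.0719, 0.118 and 0.0872 from limma), and 3 of 3 BM-MC samples were below every control SHPC sample. Without control SHPC replicate 3 limma gave adjusted p = 0.0340, 0.0282 and 0.0164, and it then called 531 probes in all in place of 5. Over 19 alternatives the adjusted p, from limma or the methods' t-test, ran from 0.0189 to 0.285 for S100a9, from 0.0282 to 0.364 for S100a8 and from 0.0164 to 0.332 for Retnlg. Of these alternatives 3, 1 and 1 passed, in the same order. With slide set as a block the differences were -1.83, -1.04 and -0.98. The fourth tested gene, Fcnb, a ficolin, had a correlation of -0.84 with the globin level, or -0.32 without control SHPC replicate 3, and Mpo, Elane, Camp, Ngp, Mmp8, Mmp9, Cxcr2 and Csf3r were not above background. The summed signal of the 4 tested genes was 0.625 to 1.74 in MHs, 1.27 to 1.79 in control SHPCs and 0.611 to 0.684 in BM-MC SHPCs. The part of blood in these differences was not tested.

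Platelet genes were dim and did not follow the globins. Of 10 with a probe 4 were tested, Ppbp, Gp1ba, Gp5, Gp6 and Treml1 were above background on at most 1 array, and the summed signal of the 4 was 0.660 to 0.692 in MHs, 0.495 to 0.532 in control SHPCs and 0.457 to 0.618 in BM-MC SHPCs. Pf4, platelet factor 4, differed by -0.35 in the transplant contrast, Gp9 by 0.48, Clec1b by 0.14 and Gp1bb by 0.21 (adjusted p = 0.294, 0.266, 0.683 and 0.580 from limma). Of 15 lymphocyte genes with a probe 7 were tested. Cd3d and Cd3g, T cell receptor subunits, differed by -0.30 and -0.58 between the same groups (adjusted p = 0.250 and 0.215 from limma), and Cd22 and Nkg7 by 0.34 and 0.12 (adjusted p = 0.301 and 0.829 from limma). Among 8 tested monocyte genes, Lyz2, Cx3cr1, Cd14 and Csf1r differed by -0.21, 0.16, -0.51 and -0.03 (adjusted p = 0.482, 0.803, 0.350 and 0.961 from limma).

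Kupffer cell genes had their lowest summed signal on the array richest in globin, and without that array the median of their correlations with the globin level was 0.13 in place of -0.48. All 11 were tested, and their summed signal was 95.9 to 100 in MHs, 49.1 to 71.6 in control SHPCs and 61.2 to 86.4 in BM-MC SHPCs, with the lowest value in control SHPC replicate 3. Clec4f, a lectin particular to Kupffer cells, was at 5.36 and 5.0 in MHs, at 4.75, 4.71 and 4.19 in control SHPCs, and at 5.09, 5.12 and 4.56 in BM-MC SHPCs. C1qa, C1qb and Cd5l, which Kupffer cells also make, were likewise lowest in control SHPC replicate 3. These are the brightest genes of the list and weigh most in the summed signal. Not all others followed. Marco was lowest in MH replicate 1, at 0.43, and Vsig4 and Adgre1 in BM-MC replicate 3, at -1.55 and -1.33. The differences in the progenitor contrast were -0.63 for Clec4f, -0.65 for C1qa, -0.69 for C1qb and -0.46 for Cd5l (adjusted p = 0.235, 0.218, 0.176 and 0.382 from limma). Of the 11 genes, 10 were below 0 in this contrast, and Marco was at 0.08.

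Among 11 genes of haemoglobin clearance, Hp and Hpx, the plasma carriers of haemoglobin and haem, were at 7.68 to 8.01 and 6.58 to 7.34 over all arrays, and Ftl1 and Fth1, the ferritin chains, at 7.55 to 7.94 and 6.45 to 6.75. None of the 4 differed by more than 0.22 in the transplant contrast (adjusted p between 0.593 and 0.835 from limma). Hmox1, haem oxygenase, chosen after its values were seen, was lowest in control SHPC replicate 3, at -0.96 beside -0.07 and -0.02 in control SHPC replicates 1 and 2. Sinusoidal endothelial genes had a summed signal of 15.7 to 18.6 in MHs, 13.7 to 15.8 in control SHPCs and 15.9 to 17.8 in BM-MC SHPCs, and Kdr, Fcgr2b, Lyve1 and Pecam1 differed by 0.32, 0.12, -0.07 and 0.05 in the transplant contrast (adjusted p = 0.277, 0.606, 0.818 and 0.901 from limma). Of 7 haematopoietic progenitor genes with a probe 5 were tested. Kit, Runx1, Spi1 and Meis1 differed by -0.03, 0.54, 0.50 and 0.18 between the same groups (adjusted p = 0.948, 0.394, 0.399 and 0.568 from limma), and Gata2 and Cd34 were not above background.

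**Figure D4:**
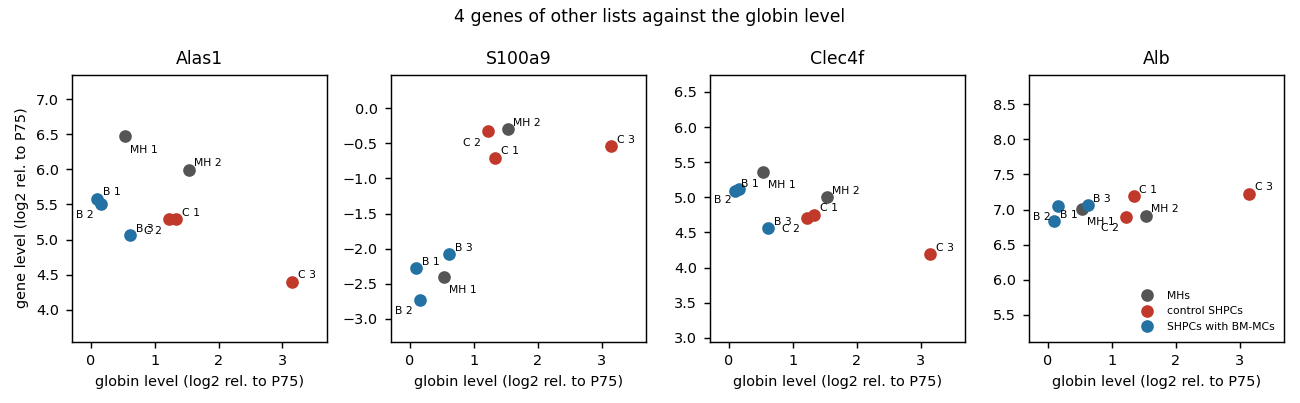
The log2 signal of Alas1, S100a9, Clec4f and Alb (y axes, the same span in each) is plotted against the globin level (x axis), 1 point for each of the 8 arrays. S100a9 is high on 4 arrays and low on the other 4 whatever the globin level within them, Alas1 and Clec4f are lowest on the array with the highest globin level, and Alb stays between 6.83 and 7.22.

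Likeness was measured as the Pearson correlation over the 8 arrays with the mean of the 6 genes, Slc4a1 and Ahsp included, for 22914 probes with a value on every array, of which 29 were at 0.9 or above. The 4 genes most alike were globins, Hba-a1 at 0.994, Hbe2 at 0.989, Hbbl1 at 0.988 and Hbb-bs at 0.986. LOC103694856 followed at 0.963. Its probe, printed above, lies opposite Hbb-b1, and it was at -2.71 and -2.23 in MHs, at -2.23, -1.99 and -0.89 in control SHPCs, and at -3.52, -3.0 and -2.79 in BM-MC SHPCs. LOC102549918, a long noncoding RNA gene, was at 0.960, with the array spread of a globin (SD 0.97), and was dim, at -2.90 in control SHPC replicate 3 and between -6.20 and -4.46 elsewhere. The other 4 of the 10 were Ppwd1 at 0.961, Rnls at 0.948, Zfp954 at 0.941 and LOC100362548 at 0.933, and their SD over the arrays was 0.15, 0.29, 0.25 and 0.22. Over the 6 SHPC arrays alone the 10 correlations ran from 0.940 to 0.995, and over the 7 arrays without control SHPC replicate 3 from 0.779 to 0.983.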

How the data were processed

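Total RNA of LMD tissue was hybridised to 1-colour Agilent rat arrays. The authors deposited the processed signal of Agilent Feature Extraction 10.7, an intensity after background subtraction and before any scaling between arrays, in scanner files and 1 value table (largest relative difference 1.19e-06). The scanner file of control SHPC replicate 2 held 20903 of 62976 features, so the value table was used for all 8 samples, and the background marks of that scanner file were left out of the filter. Each array's 58717 non-control spots were divided by their 75th percentile and log2 transformed, outlier spots were left out and spots of a probe averaged. Marks for saturation and outliers were available for 19479 of the 58717 spots of control SHPC replicate 2 and for all spots of the other arrays. No spot was saturated where marks were available.

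A probe was tested if at least 3 of 7 arrays had it well above background (23034 probes), by limma 3.58.1 (R 4.3.3) with Benjamini-Hochberg adjustment over all of them. The SHPC groups were compared on 6 samples and MHs on all 8. As no label links samples to animals, p-values cover only variation among these samples, possibly technical, and the number of arrays limits precision. The fit was tested on simulated data.

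The 6 genes and the lists were chosen with earlier results of these data known. All probes of the 6 genes were named, with up to 4 tested genes of each list by highest mean signal, any list gene past an adjusted p of 0.05, and the 10 named genes most like the mean of the 6. The brightest tested probe stood for a gene. Names were updated through RefSeq accessions (21109 probes). Alternatives covered scaling, background, filter, samples, blocks, tests and single replicates. Some list genes are not reported here.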

Additional observations from a re-analysis of the deposited data

How the results depend on the processing

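Levels and differences were recomputed under other scalings, backgrounds, filters, samples and tests. Of the summary values 170 were counted as the same and 27 as moved. The limits were wide, so this count is no measure of stability. The progenitor contrast of the 6-gene mean, at 0.50, counted as the same at 0.07 without control SHPC replicate 3. The difference of the 6-gene mean in the transplant contrast was -1.61 with the globin probes alone and -0.46 with Alas2, Slc4a1 and Ahsp alone. Leaving out 1 replicate at a time it ran from -1.25 to -0.60, that of the progenitor contrast from 0.07 to 0.81, and that of BM-MC SHPCs against MHs from -0.84 to -0.22. Small differences turned sign. Slc4a1 in the transplant contrast was -0.03 under median scaling and ran from -0.01 to 0.34 when a replicate was left out. For BM-MC SHPCs against MHs, Alas2 ran from -0.97 to 0.06 when a replicate was left out, and Ahsp from -0.30 to 0.35, with -0.09 under median scaling and -0.05 under quantile normalization. Of the erythroid genes, where limma called 0, the progenitor contrast had 1 when a probe had to be above background on every complete array, 1 with a floor for dim spots, 3 with an intensity trend and 0 to 1 without single replicates (1 without BM-MC replicate 3). Of the other blood and liver genes, the transplant contrast had 1 with an intensity trend, 1 with no scaling and 0 to 3 without single replicates (3 without control SHPC replicate 3). The methods' t-test, unadjusted, had 6, 15 and 7 erythroid genes and 8, 10 and 3 others in the transplant contrast, the progenitor contrast and BM-MC SHPCs against MHs. Without control SHPC replicate 3 limma called 531 of all probes in the transplant contrast. For the other alternative counts no share of all probes is given, so they cannot be set against a background. Probes with a correlation of at least 0.9 with the 6-gene mean numbered 29, 11 with no scaling, 75 with normexp and quantile normalization, 214 over the 6 SHPC arrays, 10 with the non-globin genes alone and 45 to 97 without single replicates. With the replicate number as a block, 0 genes of either list were called in any contrast. After each probe's group mean was taken off, same-numbered SHPC samples correlated at 0.133, 0.078 and 0.172. Differently numbered ones correlated between -0.154 and 0.082. As the same-numbered values were not all over 0.1, the numbers were not taken as pairs, though they tended to be higher than the others. The cause of these changes was not tested. Genes near background, such as Klf1, are limited by signal. The alternatives with 5 genes by name, with 3 globin genes and Alas2, and the values within each slide set were chosen after seeing the data.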
